A study of Mus musculus with 6 samples.

Results

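The transcriptome described here is that of human hepatocellular carcinoma (HCC) cells growing in the livers of control mice. It was read from the human gene counts of the 3 libraries labelled siControl, out of 6 libraries in the series, and it covers 62753 human genes. QGY-7703 cells, a cultured human HCC line, were implanted into the livers of BALB/c (nu/nu) mice, athymic males that were 6 weeks old. An adeno-associated virus (AAV8) carrying siControl was given through the tail vein 1 week after the cells, and follow-up lasted 3 weeks. The labels give the tissue as liver, the genotype of these mice as WT and the treatment as control AAV. The vector used a thyroxine-binding globulin promoter, which is active in hepatocytes. The methods state that the line was authenticated by short tandem repeat typing. Registers of misidentified cell lines list QGY-7703 as a derivative of HeLa, a cervical carcinoma line, and its identity was not checked here, so that the name HCC rests on the study. The tumors come from 1 cell line, and the hosts lack a thymus and so most T cells. The labels do not say whether the 3 libraries came from 3 mice, so the spread between them may be technical in part. The human table gives each gene by an identifier, its position in the human genome (GRCh38, gencode release 44) and a gene type, without a name. No list that pairs the identifiers with gene names was used here, although the identifiers would allow it. The markers of hepatocytes, HCC cells and other cell types were therefore not looked up, and the labelled cell type was not checked here. Genes are described below by class, chromosome and position, and only a few identifiers are printed.

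Depth was high in all 3 libraries. Replicates 1, 2 and 3 held 35811453, 27159173 and 53138655 counts on human genes. Human genes took 98.1% of the human and mouse counts in replicate 1, 99.2% in replicate 2 and 98.3% in replicate 3, with 95% Wilson intervals of 98.069% to 98.078%, 99.218% to 99.225% and 98.306% to 98.313%. These intervals, and the limit of 3 counts that a count of 0 allows, cover counting error only. In bulk tissue, fewer mouse cells and less RNA per mouse cell cannot be told apart. As a check for a library deposited more than once, the chi-square of the counts per degree of freedom lay between 95.3 and 205 for the 3 pairs, so that no pair was as close as counting noise alone would make it. That check says nothing of how the libraries were prepared. Replicate 1 stood apart from the other two. The edgeR common biological coefficient of variation, the relative spread of a gene's true level between libraries, was 0.325 over all 3 libraries. It was 0.148 without replicate 1, 0.376 without replicate 2 and 0.399 without replicate 3.

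Some background helps in reading the classes. Human cells carry a nuclear genome and many copies of a small circular mitochondrial genome, which encodes subunits of the respiratory chain and of the ATP synthase together with the ribosomal and transfer RNAs needed to make them. Nuclear transcripts include messenger RNAs, long non-coding RNAs (lncRNAs), small RNAs such as those of the spliceosome, and transcripts of pseudogenes, which are copies of other genes that have usually lost their coding function. Cancer cells gain and lose parts of chromosomes, and the position of a gene is therefore of interest beside its class. Levels are given as TPM, in which counts are divided by the length of the gene and scaled to the same total in every library, so that levels of different genes can be compared.

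Most of the human genome was silent or nearly so. Of the 62753 genes, 14489 (23.1%) had a mean TPM of at least 1, and 12570 reached that level in every library. No count in any of the 3 libraries was found for 25586 genes (40.8%). Among 20069 protein-coding genes, 11071 (55.2%) had a mean TPM of at least 1, 6366 (31.7%) at least 10, 1005 (5.01%) at least 100 and 94 (0.468%) at least 1000. There were 2596 protein-coding genes (12.9%) without a count. The median protein-coding gene outside the mitochondrial genome stood at a TPM of 2.15 in replicate 1, 1.57 in replicate 2 and 2.39 in replicate 3. The lower value in replicate 2 went with a larger mitochondrial share of its TPM, described below.

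Expression rested on few genes. It took 109 genes to hold 50% of the TPM in replicate 1, 17 in replicate 2 and 83 in replicate 3. The libraries were closer when the mitochondrial genome was left out. Then 310, 294 and 392 nuclear genes held 50% of the nuclear TPM. Overlapping exons of a gene, over all its annotated transcripts, were merged into blocks. Protein-coding genes with few such blocks were more often silent. Of 1131 nuclear protein-coding genes with 1 block, 24.0% had a mean TPM of at least 1 and 49.2% had no count in any library. Of 10905 with 6 to 20 blocks, 60.6% reached that level and 8.38% had no count. lncRNAs showed no such order, since 20.96% of 3249 with 1 block had a mean TPM of at least 1, beside 8.29% of 3076 with 6 to 20.

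Protein-coding genes held 89.9% ± 2.09 (SD, n = 3) of the TPM, although they are 32.0% of the annotated genes. Their share was 91.6% in replicate 1, 87.6% in replicate 2 and 90.4% in replicate 3. That sum hides a large difference between the nuclear and the mitochondrial genome. Nuclear protein-coding genes held 70.5%, 47.0% and 63.1% of the TPM in replicates 1, 2 and 3. The 13 protein-coding genes of the mitochondrial genome held 21.1%, 40.6% and 27.3%. Replicate 2 was the lowest library for the nuclear genes and the highest for the mitochondrial ones.

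**Figure D1:**
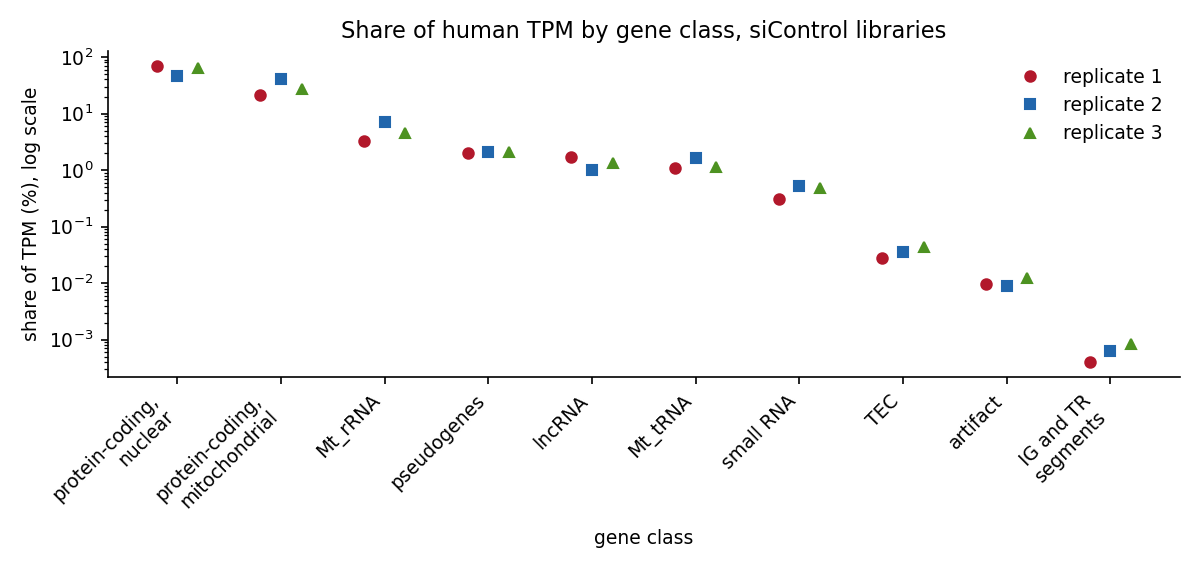
Share of the human TPM (%, log scale) held by each gene class in the 3 siControl libraries, with 1 point per library. Nuclear protein-coding genes lie between 47.0% and 70.5%, and immunoglobulin (IG) and T cell receptor (TR) segments lie lowest. TEC stands for transcripts that the annotation lists as still to be experimentally tested.

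The 2 ribosomal RNA genes of the mitochondrial genome held 3.22%, 7.16% and 4.57% of the TPM in replicates 1, 2 and 3. The other non-coding classes were smaller. The 18866 lncRNAs held 1.67%, 1.02% and 1.32% of the TPM, and 1925 of them had a mean TPM of at least 1. Pseudogenes held 2.03%, 2.06% and 2.05%. Within them, 10148 processed pseudogenes, which arise from reverse-transcribed messenger RNA, held 1.34% ± 0.186, and 2609 unprocessed pseudogenes held 0.604% ± 0.208. Small RNA genes held 0.310%, 0.529% and 0.491%, with replicate 1 lowest. Among these, miRNA genes held 0.115% ± 0.0290, snRNA genes 0.0803% ± 0.0385 and snoRNA genes 0.0775% ± 0.0272 (SD, n = 3 for each). A gene shorter than a sequenced fragment gets an uncertain TPM, so these values for short genes are rough.

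Lymphocyte receptor genes were all but unread. The immunoglobulin and T cell receptor segments, which mark B and T cells, drew 25, 39 and 60 counts in total over 411 segments, and 1 segment had a mean TPM of at least 1.

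By TPM, the mitochondrial genome held more than any other chromosome in each library. Its 37 genes held 25.5% of the TPM in replicate 1, 49.4% in replicate 2 and 33.0% in replicate 3, or 35.9% ± 12.2. As a share of counts, not corrected for length, they held 8.19%, 21.7% and 11.6%. On that scale chromosome 1, with 9.53%, and chromosome 12, with 8.24%, held more in replicate 1. The order of the libraries was the same on both scales, with replicate 2 highest. The 6 highest genes of the whole table, and 16 of the 20 highest, were mitochondrial.

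The highest gene of all was the protein-coding gene at chrM:9207-9990, with a TPM of 37651, 88163 and 52351. It was followed by the protein-coding gene at chrM:5904-7445, with 32629, 61712 and 39384. The larger of the 2 ribosomal RNA genes, chrM:1671-3229, stood at 26057, 57826 and 36535. These 3 genes were lowest in replicate 1 and highest in replicate 2. Some other protein-coding genes varied less. The gene at chrM:12337-14148 had a TPM of 5431, 7057 and 5565. The only protein-coding gene on the minus strand, chrM:14149-14673, had 7981, 8801 and 7680. The gene at chrM:8366-8572 had 10323, 13105 and 11121. The level in replicate 2 was 1.10 to 2.46 times that in replicate 1 over the 15 genes that are not transfer RNA genes. The difference between libraries was thus not the same for every mitochondrial gene.

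**Figure D2:**
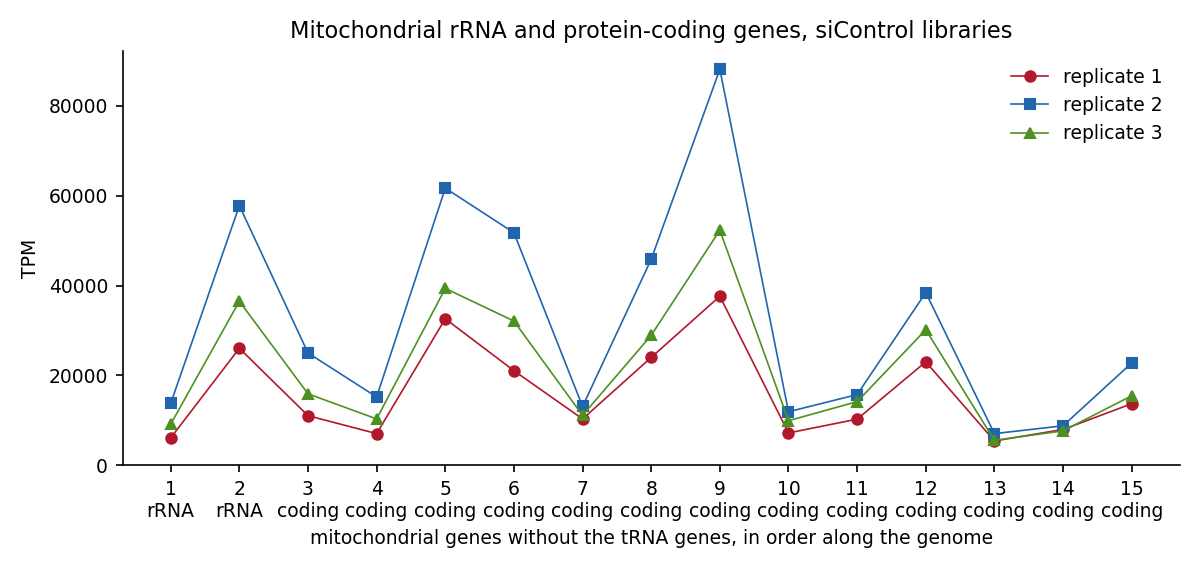
TPM of the 2 ribosomal RNA genes and 13 protein-coding genes of the mitochondrial genome, in their order along it, in each siControl library; lines only join the points of 1 library. Replicate 2 is highest at every gene, and the SD in TPM is smallest at the genes numbered 13 and 14 on the axis. On the log2 scale, gene 7 varies less than gene 13.

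Transfer RNA genes of the mitochondrial genome were read very unevenly. The 22 genes held 1.11%, 1.63% and 1.12% of the TPM, and the 8 on the minus strand held 1.24% ± 0.289, against 0.0449% ± 0.00772 for the 14 on the plus strand (SD, n = 3). The highest, chrM:5761-5826, drew 3521, 5026 and 5520 counts. It was followed by chrM:15956-16023 with 2674, 4342 and 4688 counts and by chrM:5657-5729 with 2242, 3279 and 3540. These 3 genes were high in every library. By contrast, the gene at chrM:5587-5655, next to the last of these on the same strand, drew 0, 0 and 2 counts. The sources used here do not say whether the counting used strand, and without strand a transcript of the opposite strand would be counted too.

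One nuclear entry moved with the mitochondrial genes. The highest unprocessed pseudogene, at chr1:633696-634376, is 681 bases long, the same length as the mitochondrial protein-coding gene at chrM:8527-9207. It drew 26501, 61032 and 62380 counts, which was 13.5%, 16.0% and 16.3% of the counts of that gene. It held 76.3%, 88.0% and 79.9% of all counts on unprocessed pseudogenes, so that the share of that class rests on 1 gene. Reads that map equally well to several places were removed by the authors, and the sequences of these genes were not compared here.

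Outside the mitochondrial genome, 1 gene stood far above the rest. ENSG00000034510, a protein-coding gene at chr2:84905656-84906671, had a TPM of 24667, 21655 and 23443, with a mean of 23255 ± 1515 (SD, n = 3). It was the only nuclear protein-coding gene over 10000, and its TPM was close in the 3 libraries. On nuclear TPM it had 33097, 42756 and 34994, highest in replicate 2. The next was the protein-coding gene at chr12:6534512-6538374, with 7236, 3706 and 4586, highest in replicate 1. The other genes among the 15 highest nuclear ones had mean TPMs from 3169 upward. Of these 15, 13 were protein-coding and 2 were pseudogenes, and they lay on 10 chromosomes. Together they held 8.79%, 6.84% and 7.44% of the TPM.

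On this scale 13 of these 15 genes lay lowest in replicate 2. On nuclear TPM, which leaves out the mitochondrial share, 0 did, and 9 lay lowest in replicate 3. The protein-coding gene at chr4:151099624-151104642 had a TPM of 5108, 3482 and 3581. The gene at chr6:33272075-33276511 had 5841, 2759 and 3017, and the gene at chr12:120196699-120201235 had 4789, 2050 and 2669. In both of the last, replicate 1 was well above the other two libraries, and it remained so on nuclear TPM, with 7838, 5447 and 4503 and with 6425, 4048 and 3983. For the gene on chromosome 4, nuclear TPM was 6854, 6875 and 5345. Other genes were not lowest in replicate 2 by a wide margin, or not at all. The gene at chr19:48965309-48966879 had 3011, 3188 and 3825, highest in replicate 3, and the gene at chr12:56116590-56117967 had 3429, 3036 and 3427.

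The second-highest pseudogene was a processed one of 81 bases at chr20:21755270-21755350, with 4523, 3509 and 5914 counts and a TPM of 4660, 3543 and 3766. Its high TPM rests on its short length. The third, at chr21:18857779-18858276, had a TPM of 835, 602 and 784. Both were read in every library, and neither ranged as widely as the pseudogene on chromosome 1.

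The highest lncRNA belonged largely to 1 library. ENSG00000130600, at chr11:1995166-2004552, drew 274636 counts in replicate 1, 20147 in replicate 2 and 31090 in replicate 3. Its TPM was 6620, 476 and 463, so replicates 2 and 3 were close and replicate 1 was far above them. It made up much of the lncRNA share in replicate 1. The next lncRNAs differed less on TPM. The one at chr2:174719821-174720853 had a TPM of 491, 339 and 425, and the one at chr6:27138293-27138540 had 337, 319 and 354.

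Chromosomes differed in how much of the nuclear TPM they held for their number of genes. Chromosome 12 carried 5.18% of the nuclear protein-coding genes and held 8.01% ± 0.328 of the nuclear TPM (SD, n = 3), 1.55 times its share of genes. No other nuclear chromosome passed 1.5 times. Its highest genes were those at chr12:6534512-6538374 and chr12:56116590-56117967 given above. Chromosomes 9 and 2 followed at 1.36 times each. On chromosome 2 the gene ENSG00000034510 alone held 43.4% of the TPM. Chromosome 1, with 10.3% of the genes, held 12.5% ± 0.772.

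Other chromosomes gave less than their share of genes. Chromosome 18 held 0.567% ± 0.0493 of the nuclear TPM with 1.33% of the genes, a ratio of 0.43. Chromosome 13 had a ratio of 0.48 and chromosome 4 of 0.65. The median gene tells a different story from the sum. On chromosome 18 the median protein-coding gene stood at a mean TPM of 2.06 and 58.3% of its protein-coding genes reached a TPM of 1, close to the 55.1% of all nuclear protein-coding genes. On chromosome X the median was 0.0617, and 39.2% of 859 protein-coding genes reached a TPM of 1. On chromosome 16 the median was the highest of the nuclear chromosomes, at 4.70, with 62.2% of genes at a TPM of at least 1.

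**Figure D3:**
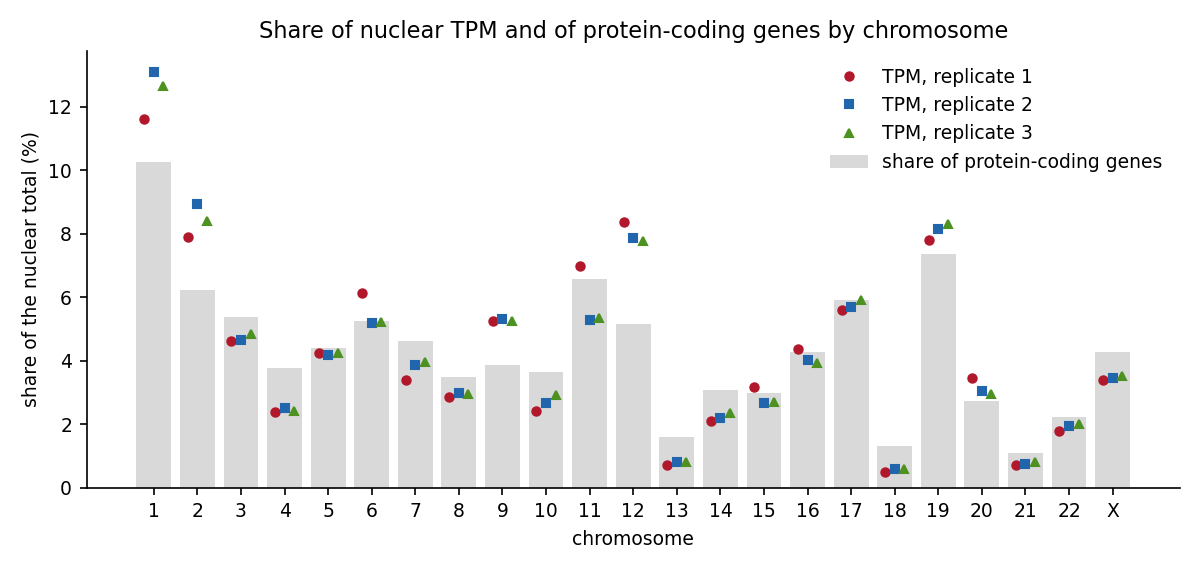
Share of the nuclear TPM (%, points, 1 per siControl library) and share of the nuclear protein-coding genes (%, grey bars) by chromosome. Chromosomes 1, 2, 9, 12, 19 and 20 lie above their bars in all 3 libraries, and chromosomes 4, 13 and 18 are among those below. On chromosomes 6 and 11 replicate 1 lies apart from replicates 2 and 3.

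The 3 libraries gave nearly the same share for some chromosomes and not for others. On 14 of 23 nuclear chromosomes the range of the shares passed 10% of their mean, with replicate 1 lowest on 9 of the 14 and highest on the other 5, which were chromosomes 6, 11, 15, 16 and 20. Chromosome 1 is among the 9, but without the pseudogene at chr1:633696-634376 it held 11.22%, 11.84% and 12.04%, a range of 6.99% of the mean. Chromosome 9 held 5.27%, 5.32% and 5.26%, and chromosome 5 held 4.26%, 4.19% and 4.24%. Chromosome 11, in contrast, held 6.99% of the nuclear TPM in replicate 1 against 5.30% and 5.36% in replicates 2 and 3. Chromosome 6 held 6.14% against 5.19% and 5.21%. Chromosome 7 held 3.39% against 3.86% and 3.98%, and chromosome 10 held 2.42% against 2.68% and 2.91%. The lncRNA ENSG00000130600 lies on chromosome 11 and had a nuclear TPM of 8883, 940 and 691. Part of the difference on that chromosome thus rests on 1 gene, and the share without it was not computed.

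The windows along each chromosome were therefore compared, after the shares had been seen. Protein-coding genes with a mean TPM of at least 10 were put on a log2 scale and centred on the median of each library. The centring takes out most of the mitochondrial share, which can still act through the pseudocount and the TPM limit. The median difference between libraries was taken in windows of 10 Mb with at least 5 such genes. Of 270 windows, 47 (17.4%) had 1 library at least 0.2 from both others in the same direction. Replicate 1 was the higher one in 29 windows (10.7%) and the lower one in 13 (4.81%). Replicate 3 was lower in 4 windows (1.48%), all on chromosome 5, and replicate 2 stood apart in 1. With mitochondrial genes left out of the TPM, replicate 1 was higher in 32 of 280 windows and lower in 10. The 29 windows with replicate 1 higher all fell into 6 long stretches, each on its own chromosome and each with at least 3 such windows, with at most 1 other window between them. The 13 with replicate 1 lower lay outside these stretches and formed no such stretch. They included neighbouring windows at chr6:150000001-170000000 and windows of chromosome 10 that start at 70000001, 110000001 and 130000001. Over all such genes of chromosome 10, the medians were -0.16 against replicate 2 and -0.18 against replicate 3. Lower values of replicate 1 are to be read against medians of -0.09 and -0.08 over all such genes outside the 6 stretches.

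**Figure D4:**
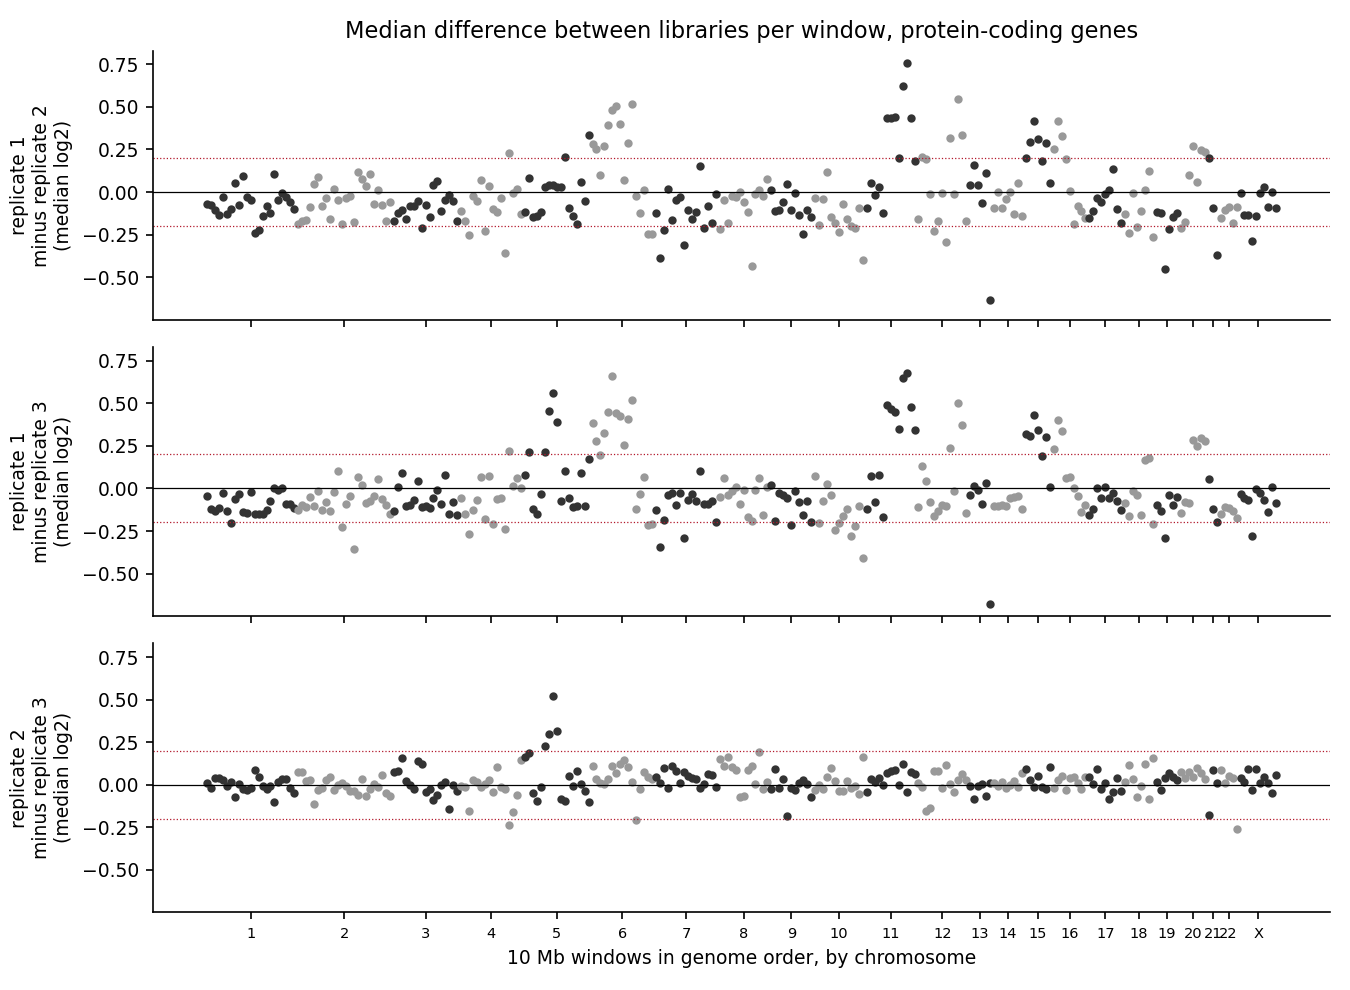
Median log2 difference between 2 siControl libraries (y axis) in 10 Mb windows of protein-coding genes with a mean TPM of at least 10 (x axis, in genome order, alternating shades by chromosome); dotted lines mark 0.2 either side of 0. Blocks of windows on chromosomes 6, 11, 12, 15, 16 and 20 rise in both comparisons with replicate 1, and a block on chromosome 5 rises in both comparisons with replicate 3.

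The longest stretch was chr6:1-120000000, where replicate 1 was higher by a median of 0.30 than replicate 2 and 0.35 than replicate 3 on the log2 scale. There, 201 of 257 genes were higher in replicate 1 than in both others. Over all 6350 genes used, replicate 1 was above both others in 37.3%. That share includes the genes of the stretches. Over the 5294 genes outside the stretches with replicate 1 higher, it was 29.1%, with median differences of -0.09 and -0.08. Libraries were centred on all genes used, so values for the rest of a chromosome are to be read against these medians, not against 0. In the rest of chromosome 6, the median differences were -0.14 and -0.14. The clearest stretch was chr11:50000001-120000000, with medians of 0.44 and 0.48 and with 190 of 223 genes above both others. The rest of chromosome 11 was at -0.02 and -0.01. The lncRNA ENSG00000130600 lies in that rest of the chromosome, outside the stretch.

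The other stretches had smaller medians than the one on chromosome 11. At chr12:90000001-130000000 replicate 1 was higher by 0.33 and 0.34, in 95 of 123 genes, while the rest of chromosome 12 was at -0.13 and -0.10. At chr15:30000001-90000000 it was higher by 0.28 and 0.31, in 115 of 158 genes. The rest of chromosome 15 was at 0.05 and -0.01, with 10 of 20 genes above both others. Replicate 1 also stood apart on chromosomes 16 and 20. At chr16:1-30000000 replicate 1 was higher by 0.27 and 0.27, in 123 of 157 genes, and the rest of chromosome 16 was at -0.08 and -0.02. At chr20:30000001-70000000 it was higher by 0.23 and 0.28, in 101 of 138 genes, and the rest of chromosome 20 was at -0.20 and -0.11. In the stretches, replicates 2 and 3 differed from each other by medians of at most 0.07. A log2 difference of 0.44 is a 1.35-fold difference, and one of 0.23 is a 1.17-fold difference, so that the shifts are small for any 1 gene.

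A stretch on chromosome 5 set replicate 3 apart instead. At chr5:60000001-100000000 replicate 3 was lower by medians of -0.32 against replicate 1 and -0.32 against replicate 2, and it was below both in 37 of 49 genes. Over all genes used, replicate 3 was below both others in 26.4%. Among single windows outside the stretches, replicate 1 was also apart at chr13:110000001-120000000, where it was lower, with medians of -0.63 and -0.68 over 15 genes.

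The windows were picked from the genes they describe, so those counts show only what was picked. Genes that were not used to pick them can be looked at in the same stretches. Each such set was centred on its own median in each library, so that higher and lower are relative to the set. In the 6 stretches with replicate 1 higher there were 765 protein-coding genes with a mean TPM of 1 to 10, of which 506 (66.1%) were higher in replicate 1 than in both others, beside 40.8% over all such genes. The median differences were 0.24 and 0.28. Of 316 lncRNAs in these 6 stretches with a mean TPM of at least 1, 174 (55.1%) were higher in replicate 1, beside 46.4% over all such lncRNAs. The lncRNAs were uneven between stretches, from 66.0% of 47 on chromosome 11 to 46.9% of 64 on chromosome 15 and 45.2% of 62 on chromosome 16, where the share was at the background. In the stretch of chromosome 5, replicate 3 was below both others in 36 of 56 protein-coding genes with a mean TPM of 1 to 10, beside 29.1% over all such genes, and in 6 of 13 lncRNAs, beside 26.1%. The genes come from the same 3 libraries and are not independent replicates. DNA was not analysed here.

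The spread of single genes was modest. Over 6726 genes with a mean TPM of at least 10, the median SD of log2(TPM + 1) was 0.37, and 98 genes (1.46%) had an SD of at least 1. Much of that spread moved with the mitochondrial share. With TPM computed over nuclear genes alone, the median SD was 0.20 over 8186 genes, and 185 genes (2.26%) had an SD of at least 1. Of the 97 nuclear genes with an SD of at least 1 on the first scale, 76 were also among these 185. Replicate 1 was the library farthest from the middle one in 87 of the 97, higher in 38 and lower in 49. On nuclear TPM it was farthest in 168 of the 185, higher in 27 and lower in 141. The split between higher and lower thus depended on the scale, while the library that stood apart did not.

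Spread differed between classes. The median SD was 0.37 for 6366 protein-coding genes, 0.36 for 146 lncRNAs and 0.33 for 146 pseudogenes. It was 0.77 for 49 small RNA genes. The medians of lncRNAs and protein-coding genes were close, but an SD of at least 1 was found for 11 of the 146 lncRNAs (7.53%), beside 64 of the 6366 protein-coding genes (1.01%), 4 of the 146 pseudogenes and 18 of the 49 small RNA genes. Among nuclear protein-coding genes the median was 0.33 at a TPM of 1 to 10, 0.38 at 10 to 100, 0.35 at 100 to 1000 and 0.29 above. These SDs include the shift of all nuclear genes that goes with the mitochondrial share. The trended biological coefficient of variation from edgeR, after TMM normalization, fell with level, from a median of 0.528 over 7750 genes with an average log2 CPM (counts scaled by library total) under 0 to 0.421 over 3949 genes at 0 to 3, 0.230 over 6530 genes at 3 to 6 and 0.204 over 2833 genes above. Short genes tended to be low in replicate 1. Among nuclear genes with a mean TPM of at least 10, those of at most 500 bases were lower in replicate 1 by medians of -0.52 against replicate 2 and -0.32 against replicate 3, and small RNA genes by -1.63 and -1.29. Pseudogenes, with a median length of 530 bases, were at -0.25 and -0.01, and lncRNAs, with a median length of 1474 bases, at -0.38 and -0.25. Genes of 4000 to 8000 bases were at -0.003 and -0.02. The part of gene length in the spread was not tested further.

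Some of the genes of largest spread were close to 0 in 1 library and high in the others, and replicate 1 was the odd one in most of the 10. The lncRNA ENSG00000290242, at chr3:128854556-128859778, drew 5 counts in replicate 1, 2416 in replicate 2 and 2423 in replicate 3. The protein-coding gene ENSG00000139329, at chr12:91102629-91111494, went the other way with 5464, 73 and 37 counts, and lies in the stretch of chromosome 12 named above, where replicate 1 was higher. Their SDs of log2(TPM + 1) were 3.62 and 3.60.

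More protein-coding genes were high in replicate 1. The gene at chr12:8637346-8662888 drew 10179, 332 and 376 counts, the gene at chr1:86424171-86456553 drew 3746, 87 and 412, and the gene at chr10:104031286-104085880 drew 6163, 376 and 297. In each, the lower libraries were still well above 3 counts. Other genes were close to 0 in replicate 1. The gene at chr15:45430579-45448761 drew 1, 521 and 556 counts, and the gene at chr5:147390808-147510068 drew 15, 1703 and 4095. The lncRNA at chr15:61211913-61214231 drew 0, 99 and 169 counts, and the snRNA gene at chr5:17240611-17240715 drew 7, 164 and 127. Both of the genes on chromosome 15 lie in the stretch where replicate 1 was higher, and go against it. The protein-coding gene at chr14:94104836-94116695 differed between all 3 libraries, with 283, 2435 and 12684 counts.

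**Figure D5:**
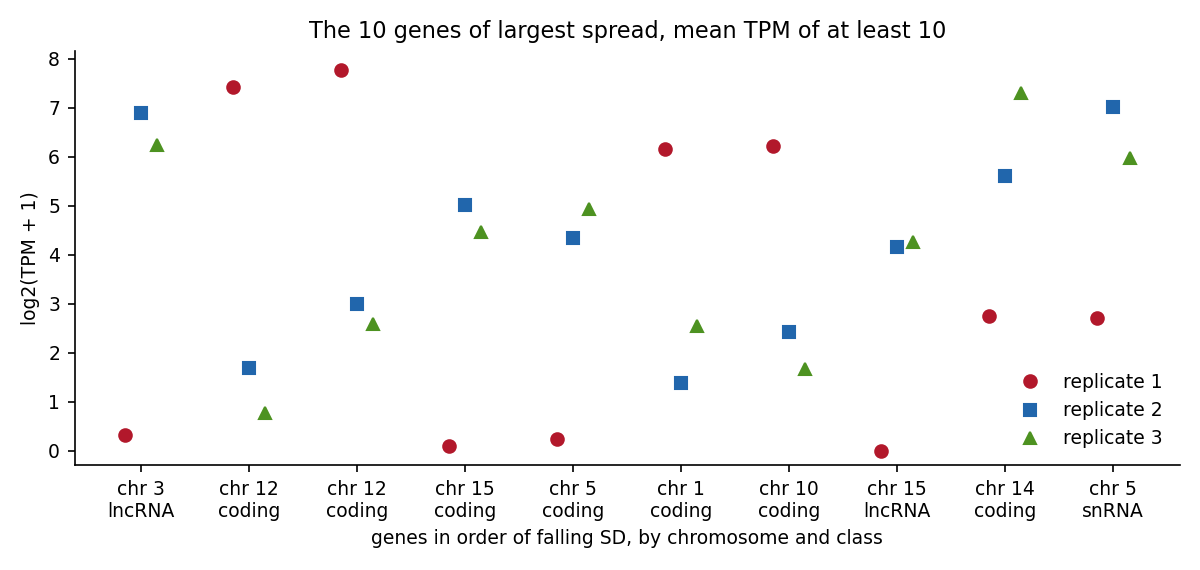
Level on the log2(TPM + 1) scale of the 10 genes with the largest SD among those with a mean TPM of at least 10, in each siControl library, in order of falling SD. Replicates 2 and 3 lie close together for most of them, with replicate 1 above or below both.

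At the other end, some genes hardly moved on the TPM scale of all genes. The protein-coding gene at chr19:4043303-4066899 had a TPM of 44.5, 44.1 and 45.5, and the one at chr1:110947190-110963965 had 16.0, 16.3 and 16.8. The processed pseudogene at chr10:68632371-68632727 had 31.3, 30.7 and 30.5. The lncRNA at chr20:49278178-49299600 had 14.65, 14.29 and 14.95. These lay among the 5 smallest SDs of the 6726 genes, all between 0.02 and 0.03 on the log2 scale. On nuclear TPM they were not steady, since each was highest in replicate 2, the library with the largest mitochondrial share. The gene at chr19:4043303-4066899 had a nuclear TPM of 59.6, 87.0 and 67.9.

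Some silent genes lay in runs along the chromosomes. Of the nuclear protein-coding genes, 6652 had a mean TPM below 0.1, and 1009 of these lay in 57 runs of at least 10 neighbours. The longest run, chr11:48216810-57237250, held 72 protein-coding genes, which drew 4, 14 and 15 counts in total in replicates 1, 2 and 3. Among the other runs, the one at chr1:152084141-153003856 held 35 genes with 5, 4 and 5 counts, and the one at chr17:41008521-41369813 held 34 genes with 3, 4 and 5. The totals are over all genes of a run. Since multi-mapped reads were removed, genes with near-identical copies can read as silent here. The number of runs to be expected without clustering was not computed, and clustering was not tested.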

How the data were processed

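Total RNA was sequenced as paired reads after SMART-Seq library preparation. Per the methods, the authors trimmed reads with Cutadapt, aligned them with STAR (2.7.11 in the submitters' processing notes) to a joined human and mouse genome, discarded multi-mapped reads and reads shared by the species, which lowers genes with near-identical copies, and ran featureCounts 2.0.1. The deposited values are raw gene counts. Whether strand was used is not given in the sources used here. There were 0 count columns without a sample, and 1 gene broken over 3 lines was left out. Reads carry no molecular identifiers.

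TPM was computed here from the counts and the deposited gene lengths, with a pseudocount of 1 for log2 values. Dispersions came from edgeR 4.0.16 (R 4.3.3), fitted with an intercept only after TMM normalization over genes with at least 10 counts in total. Tables used Python 3.11.15 and pandas 2.3.3. No test was run, since there is 1 group. Scripts were tested on simulated data. The classes, lists and windows were chosen with earlier results of these data known. Genes named are the 20 highest, the 15 highest nuclear ones, the 3 highest lncRNAs and pseudogenes, the 2 highest on a chromosome over 1.5 times its share of genes, and, at a mean TPM of at least 10, the 10 of largest and 5 of smallest SD, in part given by count only. Genes and windows named outside that rule were chosen after their values were seen. The gene planned as the study's target and the planned lists by gene name were not looked up, since no list that pairs identifiers with names was used.

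Alternatives were CPM, no mitochondrial genes, at least 10 counts in every library, pooled counts, no 20 highest genes, protein-coding genes only, thinning to the smallest total, a pseudocount of 0.1, DESeq2 1.42.0 size factors, no filter, and leaving out each replicate.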

Additional observations from a re-analysis of the deposited data

How the results depend on the processing

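No paired analysis was possible because the values come from 1 group and from no test. Of 186 alternative values, 147 stayed within 1 SD or 1.5 times of the reported ones and 39 moved. Only the log2 values of the stretches could change sign, since the other values cannot be negative. Of the stretch values, 0 reversed, but the stretches were picked by their sign in the same data. In CPM, counts scaled by library total without gene length, 425 genes held 50% of the total, and the shares were 95.3% for protein-coding genes, 0.442% for pseudogenes, 0.0256% for small RNA genes, 13.9% for the mitochondrial genome, and 9.42%, 5.12% and 7.49% for chromosomes 1, 11 and 12, with 0 windows in which replicate 2 stood apart. Without mitochondrial genes, 334 genes held 50% of the mean TPM and the shares were 93.8% for protein-coding genes, 2.08% for lncRNAs, 3.29% for pseudogenes, 0.731% for small RNA genes, and 12.5%, 5.88% and 8.01% for chromosomes 1, 11 and 12. The median SD was then 0.20, 185 genes had an SD of at least 1, and 0 windows had replicate 2 apart. Without the 20 highest genes, the shares were 93.1%, 2.18%, 2.54% and 0.768% for the same classes, 1.36% for the mitochondrial genome, and 12.2%, 6.17% and 7.56% for chromosomes 1, 11 and 12. These shares differ by construction, since the total changed. With at least 10 counts in every library, pseudogenes held 1.90% and small RNA genes 0.206%. In 5 Mb windows, an alternative chosen after seeing the data, as were all alternatives for the windows, 86 of 400 windows were called, with replicate 1 higher in 44 and lower in 33 and replicate 2 apart in 3. Under the other alternatives, 46 to 51 windows were called. Leaving out 1 replicate gave 40 to 97 genes holding 50% of the mean TPM (60 with all 3), a median SD of 0.16 to 0.45, 17 to 313 genes with an SD of at least 1, and a biological coefficient of variation of 0.148 to 0.399. The lowest of the last 2 came without replicate 1, and the lowest median SD without replicate 2, the library with the largest mitochondrial share. The planned comparison of gene lists by name was not run, since the table holds no names and no list that pairs its identifiers with names was used. With 3 libraries, an SD is itself uncertain, and genes with few counts are imprecise.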
